A study of Mus musculus with 6 samples.

Results

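The genes described here are 42 genes of the ATF4 amino acid and stress response, namely Atf4 itself and known targets of the protein it encodes, out of 55471 genes in the deposited count table. They were taken from a list of symbols. By role they fall into 14 stress factors, 9 enzymes of amino acid synthesis, 6 genes of amino acid transport and 13 cytosolic aminoacyl-tRNA synthetases. Total RNA was sequenced from cultured mouse undifferentiated pleomorphic sarcoma (UPS) cells, a line from a soft-tissue tumour that shows no clear tissue of origin. There were 3 control libraries of wild-type genotype and 3 Setd1a knockout libraries, all 6 labelled as metastatic cells and all grown in the same serum-containing medium with no treatment named. Setd1a encodes a histone methyltransferase that marks active promoters, and the comparison asks what its loss does to gene expression. The labels do not say how the knockout was made, whether it is a clone or a pool, or whether libraries came from separate cultures, so the p-values below measure only the spread between these libraries, which may be technical. The sample titles also carry a tag that differs between control and knockout and whose meaning is not given, so an effect of the tagged property and of the knockout cannot be told apart.

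ATF4 is a transcription factor of the bZIP family whose protein is made when the initiation factor eIF2 is phosphorylated by one of its kinases, which sense lack of amino acids, unfolded protein in the endoplasmic reticulum, double-stranded RNA or lack of haem. It raises genes that make, import and load amino acids onto tRNA, together with stress factors such as CHOP (gene Ddit3) and TRIB3 that limit growth or feed back on the response, and it is often active in tumour cells with a high demand for amino acids. Much of its control is at the level of translation, so the level of the Atf4 transcript is only part of its activity.

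Each library held between 17749533 and 18272622 counts, and 13044 genes, all 42 members among them, passed edgeR's filter on low counts. Values are CPM, counts relative to the TMM-scaled library total, as edgeR computes them. In bulk RNA, fewer cells of a type and less RNA per cell cannot be told apart. The Setd1a transcript was present at 70.99, 75.3 and 73.5 CPM in control libraries 1 to 3 and 53.2, 68.7 and 56.3 CPM in knockout libraries 1 to 3, lower in each of the latter, with a log2 difference of -0.30 (edgeR adjusted p = 0.426, and 0.0913 in the paired test explained below); 52.3% of its exonic bases are shared with other genes, so this value is uncertain. The 10 mesenchymal markers summed to 9055 to 9463 CPM in control and 7736 to 9001 CPM in knockout libraries, with none at 0. Macrophage markers summed to 20.4 to 22.6 CPM and 19.8 to 28.3 CPM with 4 to 6 of 10 at 0, and endothelial markers to 20.97 to 27.3 CPM and 27.8 to 34.8 CPM with 1 to 3 of 10 at 0. Most of the macrophage sum came from Cd14 and Cd68. Most of the endothelial sum was Flt1, at 19.4 to 24.1 CPM in control and 22.8 to 31.6 CPM in knockout libraries. The part of these differences in the comparisons below was not tested. Libraries of the same replicate number deviated together from their group means, with correlations of 0.15, 0.46 and 0.38 for numbers 1, 2 and 3. Correlations between unlike numbers ran from -0.45 to 0.053, and number 1 stood out least. Deviations from a mean of 3 libraries sum to 0 for each gene. Positive same-number correlations therefore push those of unlike numbers below 0, and the contrast between them is partly built in. Each comparison was also fitted with the replicate number as a block, called the paired test. What such a number marks is not given in the labels.

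ATF4 binds DNA with a C/EBP partner at sites whose core reads TGATGNAA on one strand and TTNCATCA on the other. In RefSeq promoter windows of 300 bases (250 before and 50 after the transcription start, GRCm38.p6), 13 of the 34 members with a window held at least 1 such core on either strand, or 38.24%. Of all 32851 windows 3.969% held one, and of the 9644 tested genes with a window 2.644% did. The share was 5 of 14 stress factors, 2 of 8 enzymes of amino acid synthesis, 1 of 4 transport genes and 5 of 8 tRNA synthetases. Windows could not be matched for Cth, Slc7a5, Slc1a5, Nars, Lars, Vars, Cars and Wars. The stretches below show where the core lies, 5′ to 3′ on the strand of the gene, with the core in capitals. They are from the members with a core and the smallest p without the block between knockout and control, leaving out Trib3 and Iars, and from Asns, a classical target added after its values were seen.
Gars (chr6:55037947-55038000, plus strand): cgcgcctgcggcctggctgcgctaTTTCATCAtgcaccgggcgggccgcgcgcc
Aars (chr8:111033706-111033761, plus strand): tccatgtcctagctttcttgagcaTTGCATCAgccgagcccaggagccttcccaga
Slc7a11 (chr3:50443629-50443703, minus strand): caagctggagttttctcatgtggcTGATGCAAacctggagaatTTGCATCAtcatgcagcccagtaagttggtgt
Tars (chr15:11399659-11399697, minus strand): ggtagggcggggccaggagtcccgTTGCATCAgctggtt
Chac1 (chr2:119351025-119351080, plus strand): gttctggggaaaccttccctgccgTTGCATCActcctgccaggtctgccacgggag
Nupr1 (chr7:126625549-126625604, minus strand): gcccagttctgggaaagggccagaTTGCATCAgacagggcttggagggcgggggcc
Asns (chr6:7693210-7693256, minus strand): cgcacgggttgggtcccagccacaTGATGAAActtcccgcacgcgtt
The cores of Gars and Tars begin 30 and 15 bases before the start, and the cores shown for Aars, Chac1 and Nupr1 between 110 and 193 bases before it. Slc7a11 carries 2 cores in opposite orientation, at 66 and 47 bases before its start. Aars has a further core, TTTCATCA, after its start, and in Trib3 (TTACATCA), Iars (TTGCATCA) and Yars (TGATGCAA) the core lies after the start. A match describes these letters and was not measured as a bound site, and no other motif was searched.

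Differences of the ATF4 genes between control and Setd1a knockout cells were small. Mars, which encodes cytosolic methionyl-tRNA synthetase, was the only member called, at 0.751 times its control level, and only in the paired test. Most other members lay within a narrow range around no change: 39 of 42 had a paired 95% interval that stayed within 1.5-fold of control in both directions, and all 42 stayed within 2-fold (limma-voom; bounds from -0.94 to 0.99 on the log2 scale, the widest for the scarce Gdf15). Without pairing, the intervals were wider and 37 of 42 stayed within 2-fold.

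By edgeR's quasi-likelihood test without pairing, 0 members passed an adjusted p of 0.05 as higher in knockout cells and 0 as lower. The background was the same, 0% of the 13044 genes higher and 0% lower, although 718 genes lay above control and 588 below it with an unadjusted p below 0.05; of the members 0 were higher and 1, Mars, was lower by that measure. DESeq2 and limma-voom without pairing also called 0 members. In the paired test 0 members were higher, against 1.43% of all genes, and 1 was lower, against 0.851% of all genes. At an unadjusted p under 0.05, the paired test had 8 members lower (Mars, Ddit4, Mthfd2, Vars, Gars, Lars, Trib3 and Phgdh) and 0 higher, beside 1255 lower and 1297 higher of all genes. By CPM, the knockout libraries lay wholly below the control libraries for 1 member (7.77% of all genes) and wholly above for 0 (7.49% of all genes). Knockout lay below control in all 3 pairs for 16 members (21.6% of all genes) and above in all 3 for 2, Ddit3 and Ppp1r15a (19.9% of all genes).

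The estimated change was below 0 for 35 of 42 members, with a median log2 change of -0.07 against 0.00 over all genes, of which 49.8% were below 0. Without pairing this count moved with single libraries: without control library 3 it was 16 of 42 (median 0.03), and without knockout library 2 it was 19 of 42 (median 0.01), whereas without control library 2 it was 39 of 42 (median -0.18). With the replicate block, which keeps the numbers balanced, it was 34 of 42 (median -0.07), and with 1 pair left out it was 30 of 42, 35 of 42 and 30 of 40 tested (medians -0.04, -0.10 and -0.09 without pairs 1, 2 and 3).

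**Figure D1:**
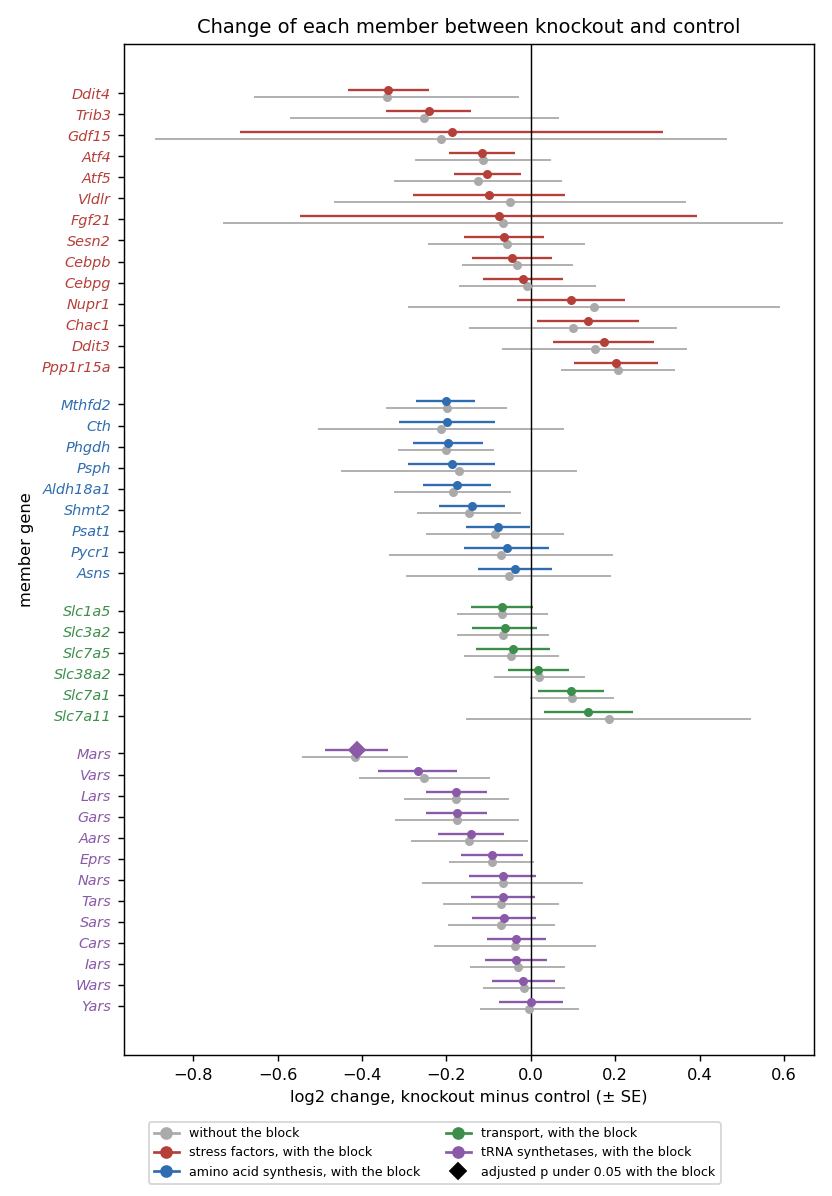
Log2 change of each of the 42 members between knockout and control (horizontal axis; knockout minus control, with its standard error), by edgeR without the block (grey) and with the replicate block (coloured by role). Mars, at -0.41 with the block, is the only member with an adjusted p under 0.05, marked by a diamond, and all 9 enzymes of amino acid synthesis lie below 0.

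Mars lies on chromosome 10 (positions 127296221 to 127311786 of GRCm38, minus strand), tail to tail with Ddit3, with which it shares 1.99% of its exonic bases. Its level was 188, 172 and 223 CPM in control libraries 1 to 3 (194 ± 26.2, SD, n = 3) and 135, 140.4 and 161 CPM in knockout libraries 1 to 3 (146 ± 13.99, SD, n = 3). The highest knockout library was below the lowest control library. The log2 change was -0.42 ± 0.12 (SE) without pairing (edgeR adjusted p = 0.320) and -0.41 ± 0.07 with it (adjusted p = 0.0321), and p was 0.1 by the two-sided exact permutation test, its minimum for 3 against 3 libraries. The paired call was lost without pair 2 (adjusted p = 0.0630) and without pair 3 (adjusted p = 0.0640), with the change still at -0.38 to -0.46.

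No other tRNA synthetase was called, although all 13 had an estimate below 0 without pairing, with a median of -0.07. This lean was not particular to the members: in a list of 11 related genes described further on, 10 were below 0, with a median of -0.13. These enzymes each charge a tRNA with its amino acid. Gars, the glycyl enzyme, stood at 495, 413 and 557 CPM in control libraries 1 to 3 and 444, 363 and 489 CPM in knockout libraries 1 to 3, a paired log2 change of -0.18 ± 0.07 (edgeR adjusted p = 0.215). Lars, the leucyl enzyme, stood at 255, 213 and 261 CPM and 213, 192 and 241 CPM, with -0.18 ± 0.07 (adjusted p = 0.217). Both were lower in the knockout library of every pair, and in both the groups overlapped. Vars, the valyl enzyme, stood at 444, 545 and 481 CPM in control and 397, 504 and 333 CPM in knockout libraries (-0.27 ± 0.09, adjusted p = 0.156); library 3 of the knockout was its lowest. Aars, the alanyl enzyme, stood at 433, 352 and 478 CPM and 359, 349.9 and 432 CPM, and Tars, the threonyl enzyme, at 294, 217 and 264 CPM and 257, 212 and 269 CPM. Of the 9 synthetases other than Mars, Gars, Lars and Vars, Aars, Eprs and Cars were lower in the knockout of every pair, with paired changes of -0.14, -0.09 and -0.03, and Nars, Sars, Iars, Tars, Wars and Yars lay between -0.07 and 0.00 with mixed directions over the pairs.

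In amino acid synthesis, none of 9 enzymes was called, and all 9 had an estimate below 0, from -0.21 for Cth to -0.05 for Asns, with a median of -0.17. Phgdh, which catalyses the first step of serine synthesis and was the most abundant member per kilobase of exon, stood at 435, 503 and 539 CPM in control libraries 1 to 3 and 418, 447 and 419 CPM in knockout libraries 1 to 3. Its paired log2 change was -0.20 ± 0.08 (edgeR adjusted p = 0.227). The knockout libraries were close to each other and overlapped the lowest control library. Mthfd2, a mitochondrial enzyme of one-carbon metabolism, stood at 159, 133 and 176 CPM and 138, 113 and 156 CPM, with a paired change of -0.20 ± 0.07 (adjusted p = 0.152). It was lower in the knockout of each pair, by less than the distance between libraries 2 and 3 within either group. Shmt2, which feeds mitochondrial one-carbon units from serine, stood at 591, 517 and 673 CPM in control and 553, 501 and 555 CPM in knockout libraries, and Aldh18a1, which starts proline synthesis from glutamate, at 191, 149.7 and 213 CPM and 157, 151 and 179 CPM. Their paired changes, -0.14 and -0.17, had adjusted p-values of 0.378 and 0.271. Asns, the asparagine synthetase, stood at 195, 126 and 246 CPM and 165, 142 and 240.1 CPM. The knockout of pair 1 was lower, that of pair 2 higher and that of pair 3 nearly level, for a paired change of -0.04 ± 0.09 (adjusted p = 0.870).

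Among the stress factors, none of 14 was called, 10 had an estimate below 0 and 4 above. Atf4 stood at 411, 315 and 438 CPM in control libraries 1 to 3 and 342, 302 and 430.5 CPM in knockout libraries 1 to 3, a paired log2 change of -0.12 ± 0.08 (edgeR adjusted p = 0.476). The groups overlapped, and most of the difference lay in pair 1. Atf5, a related bZIP factor, stood at 157, 111 and 198 CPM and 142, 116 and 169 CPM (-0.10 ± 0.08, adjusted p = 0.537). Ddit4, an inhibitor of mTORC1 signalling also known as REDD1, had the most negative estimate of the group, at 27.9, 19.3 and 43.5 CPM in control and 22.5, 15.3 and 33.8 CPM in knockout libraries. It was lower in the knockout of each pair, at -0.34 ± 0.10, but did not pass adjustment (adjusted p = 0.0934). Trib3, a pseudokinase that restrains ATF4, stood at 30.98, 18.03 and 42.7 CPM and 24.1, 16.6 and 36.3 CPM, with -0.24 ± 0.10 (adjusted p = 0.223).

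Ddit3, which encodes the pro-apoptotic factor CHOP, and 3 further stress factors had estimates above 0. Ddit3 stood at 15.6, 9.27 and 16.3 CPM in control libraries 1 to 3 and 16.02, 12.3 and 17.3 CPM in knockout libraries 1 to 3, a paired log2 change of 0.17 ± 0.12 (edgeR adjusted p = 0.483). Its exons share 10.9% of their bases with Mars and other annotated genes, and the strand setting of the counting is not given, so reads there cannot be told apart. The same holds for 20.7% of the bases of Cebpb, 15.1% of Aars and 10.4% of Psph. Ppp1r15a, the GADD34 subunit that leads a phosphatase to eIF2, stood at 40.5, 42.2 and 48.6 CPM and 42.7, 56.7 and 52.2 CPM, with a paired change of 0.20 ± 0.10 (adjusted p = 0.300). Both were higher in the knockout of all 3 pairs without passing the test, and in both the groups overlapped; without control library 2 the unpaired estimate of Ddit3 turned from 0.15 to -0.06, while its paired estimate ran from 0.08 to 0.24 with 1 pair left out. Nupr1, described further on, had a paired change of 0.09. Chac1, which degrades glutathione, stood at 43.2, 25.4 and 53.5 CPM and 39.9, 35.97 and 54.99 CPM; its estimate of 0.10 without pairing turned to -0.14 without control library 2 and to -0.10 without knockout library 3, and its paired estimate ran from -0.02 to 0.26 with 1 pair left out. Gdf15 and Fgf21, secreted stress hormones, were near the limit of detection, at 0.0558 to 0.664 CPM and 0.112 to 0.935 CPM over the 6 libraries, and no change of theirs could be told at this depth. Cebpb and Cebpg, which encode partners of ATF4, had paired changes of -0.04 and -0.02.

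Of the 6 transport genes, 3 had an estimate below 0 and 3 above, and none was called. Slc7a11, the cystine-importing subunit of system xc-, stood at 47.2, 22.7 and 37.6 CPM in control libraries 1 to 3 and 58.5, 21.04 and 42.6 CPM in knockout libraries 1 to 3. The knockout library was higher in pairs 1 and 3 and lower in pair 2 (0.14 ± 0.11, edgeR adjusted p = 0.541). Slc7a1, an importer of cationic amino acids, stood at 187, 186 and 196 CPM and 206, 215 and 188 CPM (0.10 ± 0.08, adjusted p = 0.564). Slc1a5, an importer of glutamine and other neutral amino acids, and Slc3a2, the heavy chain that pairs with Slc7a5 and Slc7a11, had paired changes of -0.07 and -0.06. Those of Slc7a5 and Slc38a2 were -0.04 and 0.02.

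**Figure D2:**
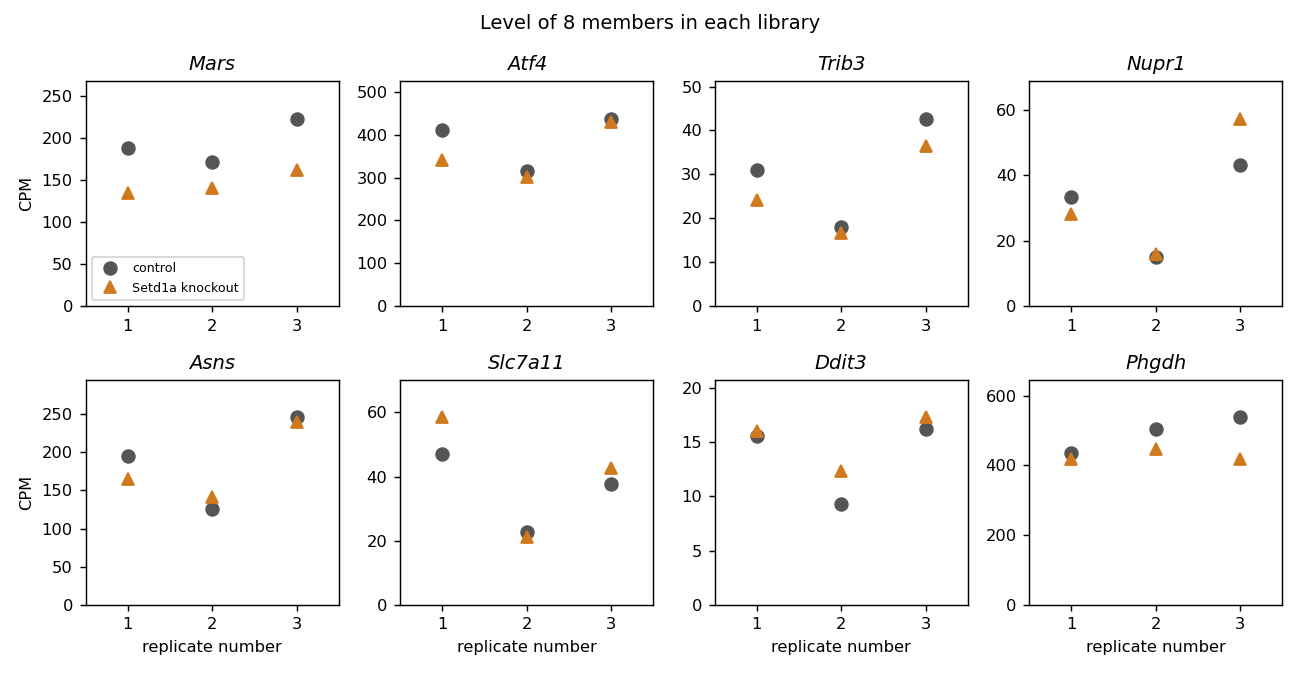
Level in CPM (vertical axis, from 0) of 8 members in each library, by replicate number, with control libraries as grey circles and Setd1a knockout libraries as orange triangles. Mars is lower in every knockout library, and Trib3, Nupr1, Asns and Slc7a11 are lowest in the libraries numbered 2 of both groups.

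Per kilobase of exon, the members' mean control level ran from 0.230 CPM for Gdf15 to 198 CPM for Phgdh. Shmt2 followed at 191 CPM, Atf4 at 164 CPM, Gars at 157 CPM and Psat1 at 140 CPM per kilobase. Vldlr at 1.81 CPM and Slc7a11 at 2.57 CPM per kilobase were the lowest after Gdf15 and Fgf21. Together the members took 0.759% to 0.964% of the counts of a library, and the lowest shares were those of the libraries numbered 2, at 0.766% in control and 0.759% in knockout.

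The members also differed between libraries of different replicate number, in control and knockout alike. In both groups library 2 was the lowest of the 3 for 31 of 42 members, against 18.1% of all genes, and library 3 was the highest for 26 of 42, against 21.6% of all genes. A test of the replicate-number term in the paired edgeR fit, added after the data were seen, called 18 of 42 members (42.9%) against 4.85% of all genes. All 18 were higher in libraries 3 than in libraries 2, while the 632 genes called over all were split into 313 higher and 319 lower. The pairing was read from the same libraries, and with the members left out the same-number correlations were still 0.15, 0.46 and 0.38. None of the 18 was called between knockout and control in the paired test. The range over the 3 numbers exceeded the size of the unpaired knockout change in 38 of 42 members (90.5%) and in 76.8% of all genes, and a range over 3 values tends to exceed a difference of a pair of means. Its median was 0.43 log2 units for members and 0.29 for all genes, where the median size of the knockout change was 0.10 and 0.13. The labels do not name what divides the numbers, so these values describe differences between libraries whose source was not tested.

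The called members were 8 stress factors (Atf4, Atf5, Ddit4, Trib3, Chac1, Sesn2, Nupr1 and Vldlr), 6 enzymes of amino acid synthesis (Asns, Psat1, Psph, Mthfd2, Pycr1 and Cth), 1 transport gene (Slc7a11) and 3 tRNA synthetases (Nars, Gars and Cars). Nupr1, a small chromatin-binding stress protein, was one of the steepest. It stood at 33.4, 14.9 and 43.3 CPM in control libraries 1 to 3 and 28.3, 15.99 and 57.4 CPM in knockout libraries 1 to 3, so libraries 3 held 3.21 times the level of libraries 2 (number-term adjusted p = 0.0105, edgeR). Vldlr, a lipoprotein receptor, stood at 21.5, 9.21 and 23.99 CPM and 13.1, 9.77 and 30.02 CPM, 2.81-fold (adjusted p = 0.0198). For both, library 2 was the lowest of each group, for Vldlr in the knockout nearer to library 1 than to library 3. Sesn2, a stress-induced inhibitor of mTORC1, stood at 34.03, 25.3 and 36.3 CPM and 31.7, 23.4 and 36.9 CPM, a log2 difference of 0.58 (adjusted p = 0.0444). Trib3 and Ddit4, with values given above, differed 2.27-fold and 2.23-fold (adjusted p = 0.0105 for each), and Atf4 itself 1.41-fold (adjusted p = 0.0446). Nupr1, Vldlr and the other members named only here were chosen after their values were seen.

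Among the enzymes, Cth, which makes cysteine from cystathionine, stood at 71.6, 34.2 and 69.5 CPM in control libraries 1 to 3 and 49.5, 33.6 and 68.1 CPM in knockout libraries 1 to 3, 2.02-fold higher in libraries 3 than in libraries 2 (number-term adjusted p = 0.0167, edgeR). Psph, the last enzyme of serine synthesis, stood at 42.9, 27.5 and 52.8 CPM and 32.5, 24.8 and 52.2 CPM, 2.01-fold (adjusted p = 0.0150). For both, library 2 was the lowest in control and in knockout cells. Pycr1, the last enzyme of proline synthesis, and Asns differed 1.91-fold and 1.82-fold (adjusted p = 0.0165 and 0.0150), Psat1 and Mthfd2 1.37-fold and 1.35-fold (adjusted p = 0.0375 and 0.0446). Psat1, the transaminase of serine synthesis, stood at 545, 508 and 736 CPM and 515, 509 and 664 CPM, with libraries 1 and 2 close together and library 3 above them in both groups. Phgdh, of the same serine pathway as Psat1 and Psph, was not called, with a difference of 0.00 on the log2 scale. Slc7a11 differed 1.83-fold (adjusted p = 0.0105), with library 1 the highest in both groups. The other 5 transport genes were not called. Of the synthetases, Cars stood at 175, 131 and 211 CPM in control and 169.8, 131 and 204 CPM in knockout libraries (1.58-fold, adjusted p = 0.0153), and Nars at 519.7, 375 and 579.5 CPM and 450.2, 375 and 582 CPM (1.55-fold, adjusted p = 0.0226). For Cars, like-numbered control and knockout libraries lay nearer to each other than to any other number, and for Nars this held for libraries 2 and 3.

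**Figure D3:**
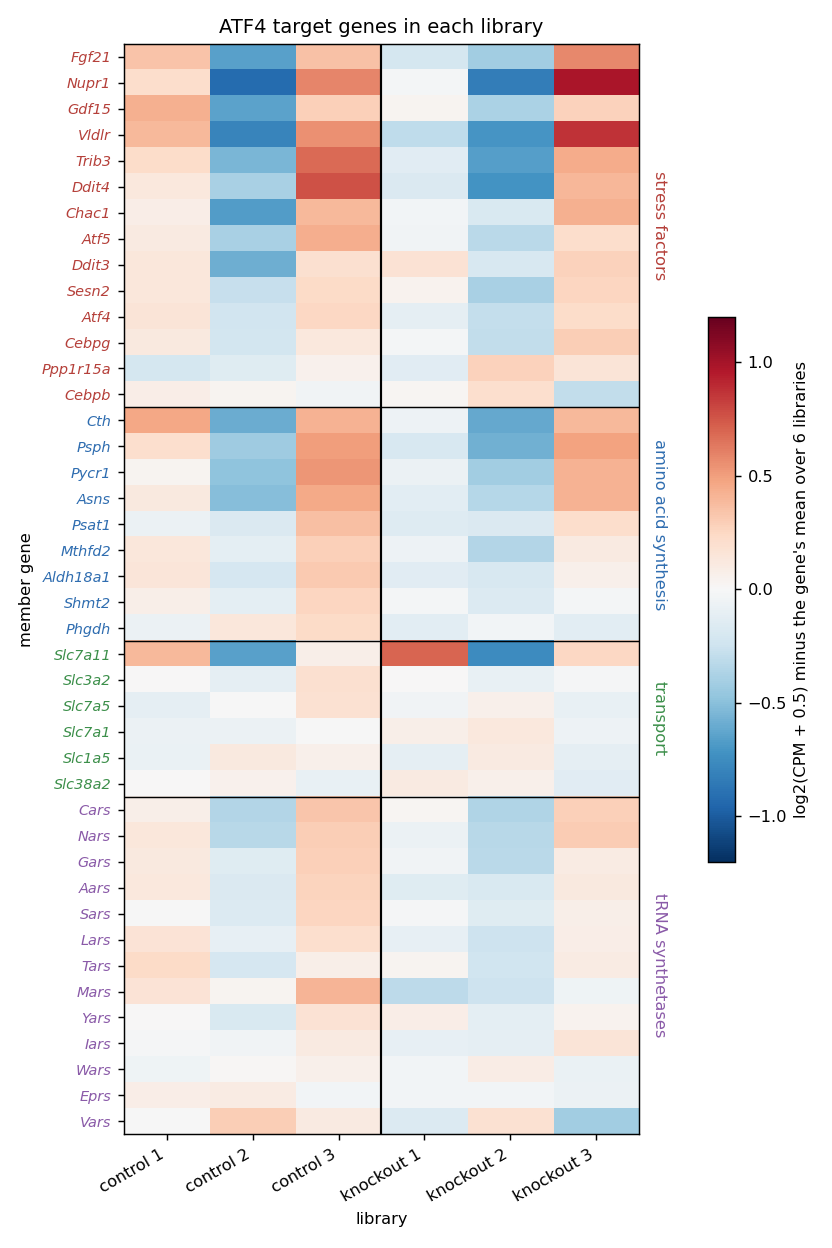
Level of each of the 42 members (rows, by role) in each of the 6 libraries (columns), as log2(CPM + 0.5) minus the gene's mean over the 6 libraries, from blue (lower) to red (higher). The columns numbered 2 are mostly blue and those numbered 3 mostly red in control and knockout alike, most of all among the stress factors.

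By role, the median log2 difference between libraries 3 and 2 was 0.76 for stress factors, 0.46 for amino acid synthesis, -0.02 for transport and 0.31 for tRNA synthetases, beside 0.00 over all genes. Members that ran the other way included Vars (log2 difference of -0.39), Cebpb (-0.29) and Slc38a2 (-0.17), none of them called. The number of members called depended on single libraries: it was 6 without knockout library 3 (1.31% of all genes), 7 without control library 2 (1.24%), 11 without knockout library 2 (2.84%) and 14 without control library 3 (4.77%). It was 24 without control library 1 (19.6%) and 28 without knockout library 1 (19.8%). Other quantities moved with the numbers too. The summed epithelial markers were 50.9, 75.8 and 86.2 CPM in control libraries 1 to 3 and 46.4, 74.7 and 86.8 CPM in knockout libraries 1 to 3, with 3 to 5 of 10 at 0 in a library. Most of each sum was Krt18, at 42.8, 61.3 and 76.0 CPM in control and 39.4, 57.4 and 70.1 CPM in knockout libraries. Krt8 was instead highest in libraries 2 of both groups, at 7.19, 13.6 and 9.70 CPM and 6.33, 16.04 and 15.7 CPM. The noncoding transcript Gm26917 stood at 1114, 194 and 1415 CPM and 806, 205 and 1119 CPM, lowest in libraries 2 of both groups. The part of these in the members' differences was not tested.

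**Figure D4:**
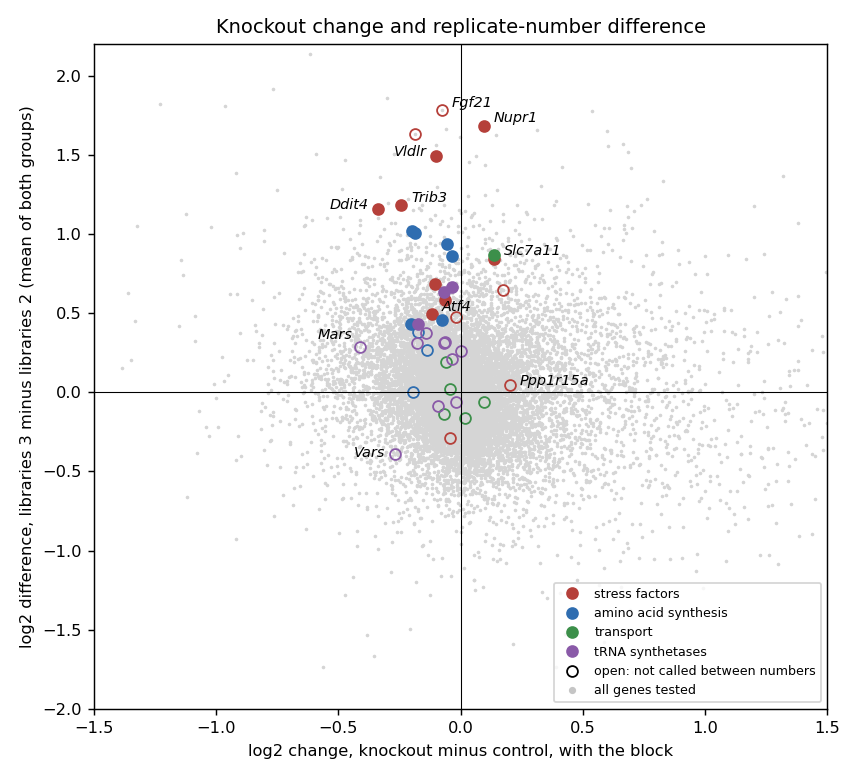
Each point is a gene, with its log2 change between knockout and control in the paired fit on the horizontal axis and its log2 difference between libraries 3 and libraries 2 on the vertical axis; the axes leave out the most extreme of the grey genes. The members, coloured by role and filled where the number term was called, form a column near 0 on the horizontal axis. It reaches up to 1.78 for Fgf21, which was near the limit of detection and not called, and to 1.68 for Nupr1 among the filled points. All 18 filled points lie above 0.

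All 13 members with the promoter core described above were lowest in libraries 2 of both groups, against 18.1% of all genes. So were 14 of the 21 with a window and no core, and 4 of the 8 without a window. One of the 13, Fgf21, was near the limit of detection. The number term was called for 8 of the 13, 7 of the 21 and 3 of the 8, against 4.85% of all genes. With the core the median log2 difference between libraries 3 and 2 was 0.86, and with a window and no core 0.38. For the knockout change the medians were -0.05 and -0.09. Of tested genes that are no members, 7.02% of 242 with a core were called by the number term, and 4.66% of 9369 without one, with medians of 0.01 and -0.01. These are descriptions, with no test.

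Genes upstream of ATF4 were described by a list of 16 eIF2 kinases, eIF2 and eIF2B subunits and related regulators. In the paired test 0 were higher and 1 lower, against 1.43% and 0.851% of all genes. The lower gene was Oma1, a mitochondrial protease that relays stress of that organelle to the eIF2 kinase HRI. It stood at 18.5, 17.2 and 19.8 CPM in control libraries 1 to 3 and 11.3, 13.1 and 12.9 CPM in knockout libraries 1 to 3 (-0.57 ± 0.11, edgeR adjusted p = 0.0373). The groups did not overlap, and the call was lost without pair 2 (adjusted p = 0.0689) or pair 3 (adjusted p = 0.0933), with the change at -0.51 to -0.65. DESeq2 without pairing called Oma1 (adjusted p = 0.0454). Mitochondrially encoded genes took 2.496% to 3.03% of counts in control libraries and 3.48% to 3.91% in knockout libraries; the part of this in the Oma1 difference was not tested. Eif2ak2, the interferon-inducible kinase PKR, stood at 51.2, 38.5 and 28.1 CPM and 38.2, 73.9 and 81.1 CPM, with overlapping groups (paired change 0.69 ± 0.28, adjusted p = 0.214). The number term called 1 of the 16, against 4.85% of all genes. The called gene, Eif2s3x, was lower in libraries 3 than in 2.

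A second list held 19 further genes linked to ATF4. In the paired test 1 was higher and 0 lower, against 1.43% and 0.851% of all genes. The called gene was Atf3, a bZIP repressor induced by many stresses, at 7.75, 6.92 and 9.47 CPM in control libraries 1 to 3 and 10.8, 16.6 and 15.7 CPM in knockout libraries 1 to 3, 1.77 times the control level (0.82 ± 0.16, edgeR adjusted p = 0.0344). Every knockout library lay above every control library. The call was lost without pair 2 (adjusted p = 0.126) or pair 3 (adjusted p = 0.0852), and DESeq2 without pairing called it (adjusted p = 0.0236). Its RefSeq promoter window carries the same core in the stretch shown here, chosen after its values were seen.
Atf3 (chr1:191183412-191183467, minus strand): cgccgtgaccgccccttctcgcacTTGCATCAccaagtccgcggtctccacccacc
The hormone gene Stc2 stood at 69.9, 64.3 and 70.9 CPM and 49.5, 52.3 and 60.4 CPM, with non-overlapping groups and a paired change of -0.34 ± 0.09 (adjusted p = 0.0711). The number term called 8 of the 19, against 4.85% of all genes. All 8 were higher in libraries 3 than in 2: Pck2, Gpt2, Jdp2, Eif4ebp1, Slc6a9, Ero1l, Herpud1 and Gadd45a. Pck2, the mitochondrial phosphoenolpyruvate carboxykinase, stood at 85.4, 41.5 and 119 CPM and 59.7, 37.9 and 106 CPM.

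The third list held 11 genes that are not among the 42. They were other cytosolic synthetases, their cofactors and Xpot, which encodes a nuclear export receptor for tRNA. In the paired test 0 were called, against 1.43% of all genes higher and 0.851% lower. Without pairing, 10 of the 11 had an estimate below 0, with a median of -0.13, where 49.8% of all genes were below 0. For the member synthetases these values were 13 of 13 and -0.07. Knockout lay below control in all 3 pairs for 7 of the 11 and for 7 of the 13, against 21.6% of all genes. Dars, the aspartyl enzyme, stood at 169, 162 and 158 CPM in control libraries 1 to 3 and 106, 123 and 145 CPM in knockout libraries 1 to 3 (-0.40 ± 0.10, edgeR adjusted p = 0.0695). Farsb, a subunit of the phenylalanyl enzyme, stood at 191, 192 and 179.5 CPM and 142, 183 and 156 CPM (-0.23 ± 0.08, adjusted p = 0.170). Dars did not overlap between groups and was called by DESeq2 with the block (adjusted p = 0.0233). The number term called 0 of the 11, against 4.85% of all genes, and none of 9 with a window carried the core. Their median difference between libraries 3 and 2 was -0.03, beside 0.31 for the 13 member synthetases. This pair of medians was not tested.

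**Figure D5:**
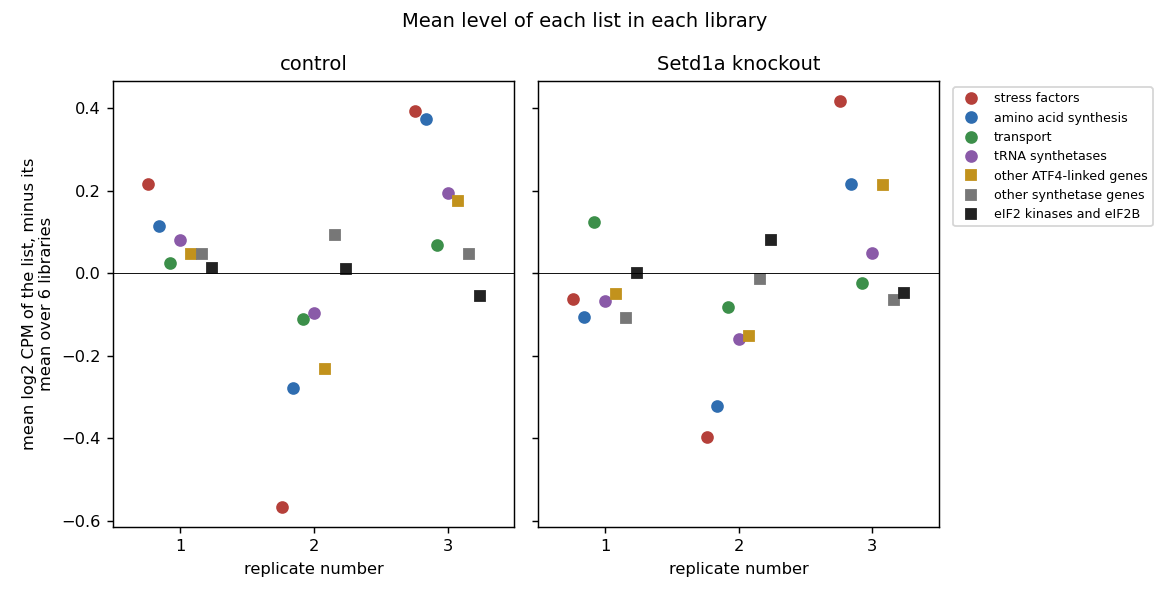
Mean log2 CPM of each list in each library minus its mean over the 6 libraries (vertical axis), by replicate number, for control (left) and Setd1a knockout (right); circles are the 4 groups of members and squares the other lists. Stress factors and amino acid synthesis are lowest in library 2 and highest in library 3 on both sides, while the eIF2 list stays near 0. The list of other synthetase genes, which includes Xpot, lies slightly above 0 in every control library and slightly below 0 in every knockout library. Its mean log2 CPM is 7.48 to 7.52 in control and 7.32 to 7.42 in knockout libraries.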

How the data were processed

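RNA of 3 control and 3 Setd1a knockout libraries of mouse sarcoma cells was measured. The authors deposited one table of raw counts, whole reads per Ensembl gene with no normalization; STAR, featureCounts and DESeq are named with the mm10 build in the submitters' processing notes, while the sources used here do not give versions, annotation release or strand setting. Groups and replicate numbers came from the sample titles. Symbols and positions came from GENCODE M21 (GRCm38), which gave a symbol to 55230 of 55471 identifiers, and promoter sequences from RefSeq by symbol. Counts were fitted by edgeR 4.0.16 (R 4.3.3): filter on low counts by group, TMM scaling and the two-sided quasi-likelihood test over all genes, Benjamini-Hochberg adjusted, at a threshold of 0.05, checked on simulated data. All 6 libraries entered each fit, with and without a block for the replicate number. The labels state no pairing, and the block follows the replicate numbers in the titles. Pairing was judged from the data, where same-number deviations correlated at 0.15, 0.46 and 0.38 and those of unlike numbers at -0.45 to 0.053. The deviations of a gene sum to 0 within a group, so the negative values for unlike numbers are no separate evidence of pairing. Intervals came from limma 3.58.1 (voom), and DESeq2 1.42.0, RLE scaling, other filters and leaving out libraries were alternatives. At this depth 1 CPM is about 18 reads, so scarce genes carry wide counting error.

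The members and the further lists were chosen with earlier results of these data known. Genes named by rule were Setd1a, Atf4, Atf5, Ddit3, Trib3, Chac1, Asns and Slc7a11, members called or not overlapping between groups, the 4 members of each role with the smallest p without the block, and, of each further list, the 2 genes with the smallest such p and any gene called. Promoters shown were those of the 8 members with a core and the smallest such p, where the core lies before the start, and those of Asns and Atf3, added after their values were seen. The test of the replicate-number term (2 degrees of freedom) was added after the data were seen.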

Additional observations from a re-analysis of the deposited data

How the results depend on the processing

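Over 27 named genes and their alternative settings, 475 of 513 log2 changes kept their direction and their side of the threshold, 22 passed it in addition and 16 changed sign, all of the latter where a library or pair was left out. With the replicate block, edgeR called 187 genes higher and 111 lower in the knockout against 0 and 0 without it, and 1 member (Mars) lower. With DESeq2 the counts were 93 higher and 40 lower, and 62 and 12 with no filter on low counts, with 0 members in both. In the paired fits the counts were 157 higher and 157 lower (DESeq2), 194 and 127 (limma-voom), 193 and 124 (RLE size factors) and 124 and 83 (a mean of at least 5 CPM), each with 1 member lower, Mars. Leaving out 1 library gave 0 to 30 higher and 0 to 1 lower without the block, and leaving out 1 pair gave 0, 140 and 507 higher and 0, 54 and 207 lower with it, with 0 members higher and 0 to 1 lower. The replicate-number term called 1119 genes by DESeq2 and 1390 with no filter, against 632, with 21 members in each; 18 to 21 members were called over the 5 alternatives that kept every library, the 18 among them each time. Leaving out 1 library gave 164 to 2611 genes and 6 to 28 members.

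Leaving out 1 library at a time, the unpaired log2 change ran from -0.27 to 0.0052 for Atf4, -0.30 to 0.087 for Atf5, -0.055 to 0.29 for Ddit3, -0.68 to 0.015 for Ddit4, -0.59 to 0.066 for Trib3, -0.14 to 0.35 for Chac1, -0.30 to 0.18 for Asns, -0.12 to 0.019 for Slc3a2 and -0.16 to 0.51 for Slc7a11. With the replicate block and 1 pair left out it ran from -0.12 to 0.066 for Asns and -0.021 to 0.26 for Chac1. The cause was not tested.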

Other observations

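Among the 20 genes with at least 5 CPM and the smallest p for the replicate-number term, 4 were members (Nupr1, Ddit4, Slc7a11 and Trib3) and several others ran the opposite way, highest in libraries 2 of both groups. Vcl, which encodes the focal adhesion protein vinculin, stood at 232, 425 and 216 CPM in control libraries 1 to 3 and 279.9, 436 and 203 CPM in knockout libraries 1 to 3. Srf, the transcription factor of actin and immediate early genes, stood at 119, 191 and 109 CPM and 132, 200.5 and 93.5 CPM. Thbs1, the matricellular protein thrombospondin, stood at 199.6, 382 and 139 CPM and 376, 456 and 151 CPM. Ccn1 and Ptgs2 followed the same order, at 443 and 239 CPM in control library 2 against 246 and 116 CPM in control library 3. Mgp, an inhibitor of calcification, was instead lowest in libraries 2, at 9.94 CPM in control and 4.44 CPM in knockout. These genes were chosen after their values were seen, and the labels give no condition that divides the numbers.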
